A study of Homo sapiens with 4 samples.

Results

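Histone lysine methylation enzymes and Polycomb genes were taken from the deposited table of H1 cells by symbol. The set covers the lysine methyltransferase families KMT, SETD, NSD, SMYD, EHMT and SUV39H, the demethylase family KDM with PHF2 and PHF8, the chromodomain family CBX, the PCGF family, and the subunits EZH1, EZH2, EED, SUZ12, JARID2, MTF2, AEBP2, PHF1, RING1, RNF2 and BMI1. The rule found 71 of the 17472 listed genes, and all 71 passed the filter on low values. SMYD1, which the rule would also take, was not analysed here. KDM5D, a Y-linked member that was not called, enters the counts over all 71 members, and its level is not given, so that exon lengths and plots over all members cover 70 genes.

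H1 is a widely used human embryonic stem cell line. The 2 MEK5DD libraries came from H1 cells that carry MAP2K5DD (MEK5DD), a MAP2K5 with both Ser311 and Ser315 replaced by Asp, delivered by lentivirus in the vector EZ-Lv195.1 and followed by puromycin selection; the labels describe 1 such line. The 2 WT libraries came from unmodified H1 cells, and both groups grew in E8 medium with FGF2, TGFβ and insulin. Poly(A) RNA was sequenced. No samples used here carry an empty vector, so delivery, selection and MEK5DD cannot be told apart, and RNA does not measure the enzymes' activity or any histone mark.

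Methyl groups on histone lysines mark chromatin states. On histone H3, trimethylation at lysine 4 (H3K4) is found at active promoters, and trimethylation at lysine 36 (H3K36) along transcribed genes. Methylation at lysine 9 (H3K9) and trimethylation of histone H4 at lysine 20 (H4K20) are found in compacted chromatin. Polycomb repressive complex 2 (PRC2) methylates H3 at lysine 27 (H3K27), and Polycomb repressive complex 1 (PRC1) ubiquitinates histone H2A and can bind the PRC2 mark through CBX proteins. In embryonic stem cells the Polycomb complexes hold many developmental genes in a silent state.

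MAP2K5 itself had 3382 and 3558 normalised counts in the MEK5DD libraries, against 344 and 315 in the WT libraries. Recovered reads ranged from 14908486 to 17628945 per library. Counts within the MEK5DD pair were farther apart than within the WT pair (chi-square per degree of freedom 6.09 and 1.87). Of 10 pluripotency markers fixed for this check, all were listed, with a summed level of 140029 to 148246 in MEK5DD and 145761 to 147988 in WT; NANOG was called higher (log2 fold change 0.26, limma adjusted p = 0.0117), SOX2 was called lower (log2 fold change -0.20, limma adjusted p = 0.0437), and POU5F1 ranged from 38116 to 42386 in MEK5DD and from 38568 to 39714 in WT. Among markers of other cell types, 5 of 8 fibroblast or feeder genes were listed (summed level 8889 to 9225 in MEK5DD and 7410 to 7503 in WT; 3 higher), 4 of 8 mesendoderm genes (236 to 278 in MEK5DD and 140 to 145 in WT; 2 higher) and 6 of 8 neuroectoderm genes (8010 to 8527 in MEK5DD and 7896 to 8088 in WT; 1 higher, NES, and 4 lower, SOX1, SIX6, MAP2 and SOX21). NES, which pluripotent cells also transcribe, made up most of the last sum, with a log2 fold change of 0.35. The 4 lower genes had log2 fold changes of -2.72 (SIX6), -2.41 (SOX1), -2.28 (SOX21) and -2.13 (MAP2), which that sum hides. Most of the fibroblast or feeder sum was THY1, at 6214 and 6072 in MEK5DD and 5775 and 5703.5 in WT, which was not called. The 3 higher genes of that list were TAGLN, COL1A2 and COL1A1. PAX6 was at 5.98 to 6.36 in MEK5DD and 1.76 to 3.12 in WT, TBXT stood under its older symbol T, below the filter and outside these counts, and SOX17, FOXA2, GATA6, OTX1, NEUROG2, COL3A1, LUM and DCN were not analysed here. The part of these cells in the results below was not tested. Fewer cells of a type and less RNA per cell cannot be told apart in such libraries.

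Changes among the 71 members were small. With limma on log2(value + 1) and Benjamini-Hochberg adjustment over all genes tested, 3 members rose and 8 fell at an adjusted p of 0.05. The call rate over all 15721 genes tested was 14.2% (7.69% higher and 6.47% lower), and the members' rate was 15.5%, near that background. The folds of the 11 called members ran from 1.16 to 1.41. The rises were SETD4 (chr21:36034541-36079389, minus strand), KMT5A (chr12:123383773-123409358, plus strand) and KMT5C (chr19:55339853-55348120, plus strand). The falls were CBX6 (chr22:38861450-38872314, minus strand), KMT2E (chr7:105014179-105114361, plus strand), NSD2 (chr4:1871424-1982207, plus strand), KDM4C (chr9:6720863-7175648, plus strand), NSD1 (chr5:177133025-177300215, plus strand), CBX5 (chr12:54230940-54280133, minus strand), EHMT2 (chr6:31879759-31897687, minus strand) and KDM3B (chr5:138352596-138437028, plus strand). Coordinates are whole genes in GENCODE v29 on GRCh38. The other 60 members had log2 fold changes between -0.44 (PCGF1) and 0.37 (SMYD2). The edgeR quasi-likelihood test gave the same counts, 3 higher and 8 lower, with 14.7% of all genes called. DESeq2 gave 1 higher and 6 lower (9.86%, against 8.64% of all genes). Without the mean-variance trend limma called 0 members, with 9 at an unadjusted p under 0.05, and 2.79% of all genes.

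**Figure D1:**
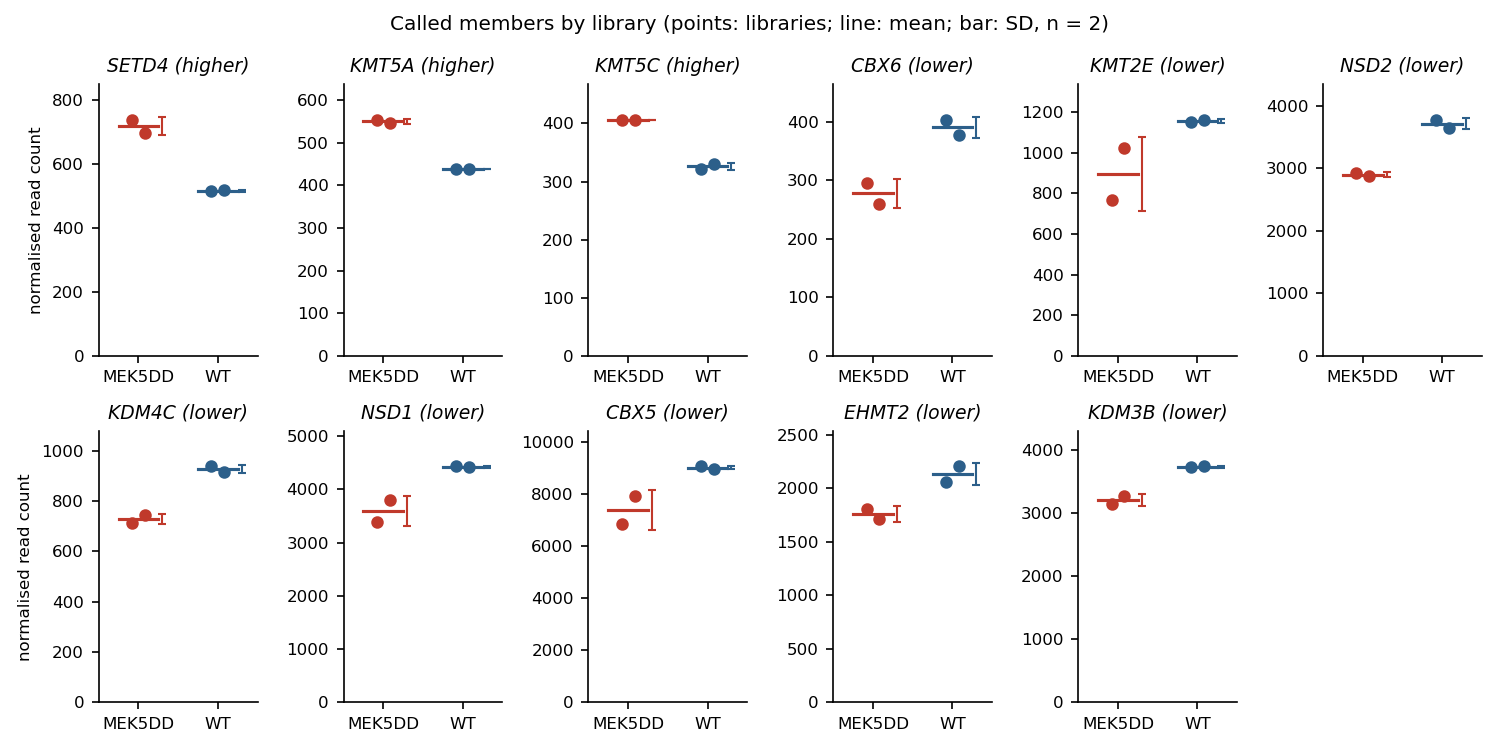
Normalised read counts of the 11 called members, with the 2 MEK5DD libraries left and the 2 WT libraries right; points are libraries, lines are means and bars are SD (n = 2). The groups do not overlap in any panel, and KMT2E shows the MEK5DD pair with the largest ratio between libraries, 766 and 1025.

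Negative log2 fold changes outnumbered positive ones. Log2 fold changes were negative in 54 of 71 members, against 7923 of 15721 genes, with a median of -0.11, against -0.0023 over all genes tested. Both MEK5DD libraries lay below both WT libraries in 39 members and above them in 10. Over all genes tested 28% lay below and 28.2% above, 56.2% in all. The members' median stayed between -0.12 and -0.07 in every alternative fit, the scalings by upper quartile (-0.12) and by quantiles (-0.12) included. Reads of the members summed to 0.607% and 0.646% of all reads in the MEK5DD libraries, against 0.697% and 0.696% in the WT libraries.

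**Figure D2:**
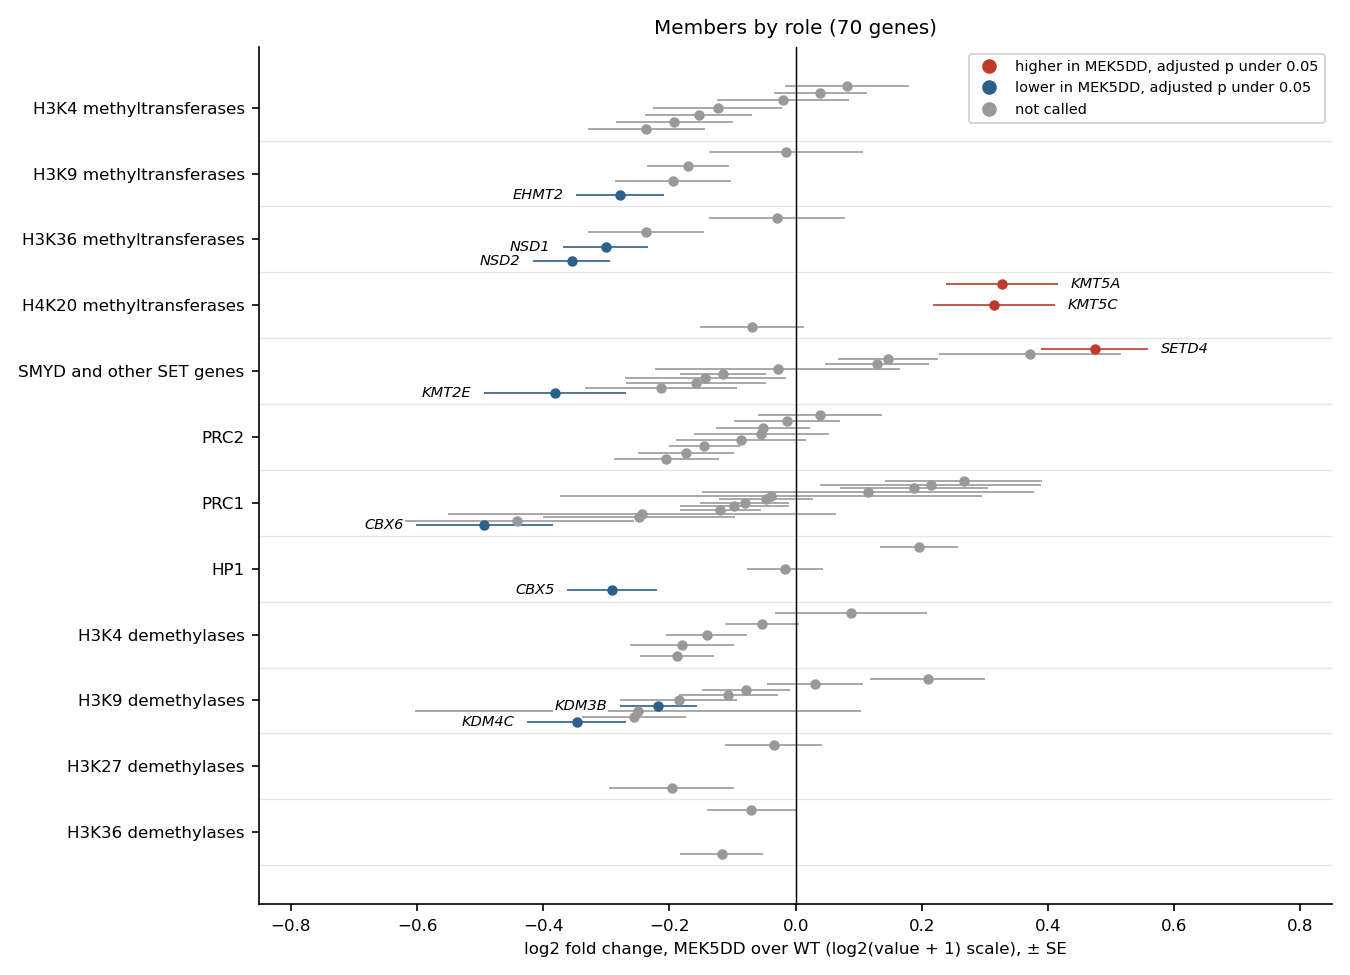
Log2 fold change of MEK5DD over WT for 70 members, with SE, by role; red points are called higher, blue points are called lower and grey points are not called. H4K20 methyltransferases are the only group with more than 1 red point, and PRC2 holds 8 grey points.

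The 8 falls were all among members with long exons, and length moved with a difference between the MEK5DD replicates. Merged exon length in GENCODE v29 was 7.29 kb to 19.8 kb in the 8 members that fell, against a median of 7.0 kb over 70 members. In 5 of these 8 members MEK5DD replicate 1 was below replicate 2. The same held for 23 of the 35 members at or above the median length and for 7515 of 15721 genes tested. Of the 35 members at or above the median length 8 fell and 1 rose. Of the 35 shorter members 2 rose and 0 fell with limma or edgeR. Across the 70 members the log2 ratio of MEK5DD replicate 1 to MEK5DD replicate 2 ran lower with longer exons (Spearman rho -0.526, a description over genes that share the same libraries). The same rho was 0.0469 between the WT replicates and -0.337 for the log2 fold change. Over 15356 tested genes with a length the 3 values were -0.274, -0.0337 and -0.0966. Among all tested genes at or above 7.0 kb, 9.89% were called lower and 7.42% higher, against 5.24% and 7.87% of shorter genes. After a trend on length was removed in each library, a choice made after seeing the data, all 11 called members kept their calls, at an adjusted p from 0.000484 to 0.0312, and the median of the members was -0.07. With that correction 5 members were called higher and 10 lower (21.1%, against 18.1% of all 15356 genes in that fit).

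**Figure D3:**
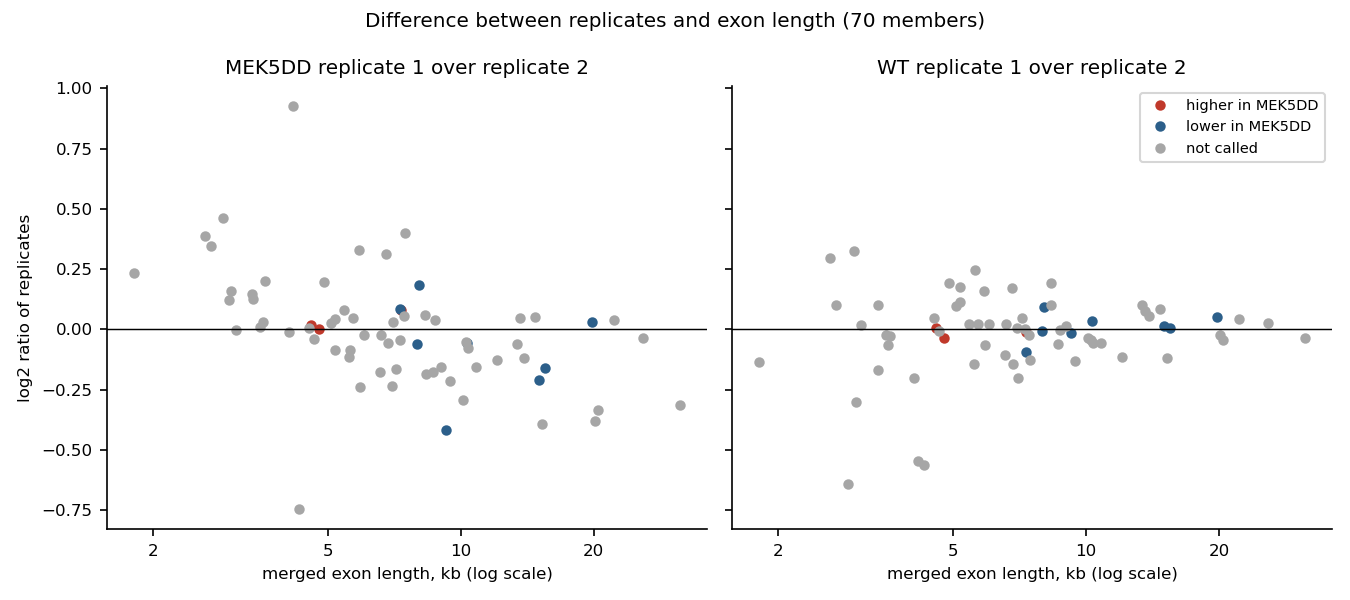
Log2 ratio of replicate 1 to replicate 2 within MEK5DD (left) and within WT (right) against merged exon length (log scale) for 70 members. In the MEK5DD panel the longer genes lie mostly below 0, and in the WT panel no such slope is seen (rho -0.526 and 0.0469).

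Among the H3K36 methyltransferase genes, 2 of 4 fell and 0 rose, with a median log2 fold change of -0.27. Over all genes tested 6.47% were called lower, and 4 genes are too few to compare with that rate. NSD1 and NSD2 encode enzymes that place dimethylation at H3K36. NSD2 had 2934 and 2872 normalised counts in the MEK5DD libraries, against 3778 and 3651 in the WT libraries. Both MEK5DD values lay well below the WT values, a fall by 0.36 on the log2 scale (SE 0.06, limma adjusted p = 0.00240). NSD1 had 3394 and 3792 in MEK5DD, against 4430.3 and 4411 in WT (log2 fold change -0.30, SE 0.07, limma adjusted p = 0.0113). Its MEK5DD pair was spread wider than its WT pair, and the groups did not overlap. SETD2, the enzyme of H3K36 trimethylation, had 1105 and 1355 in MEK5DD, against 1423 and 1460.2 in WT, and was not called (log2 fold change -0.24, limma adjusted p = 0.113; -0.09 without MEK5DD replicate 1 and -0.38 without MEK5DD replicate 2). NSD3 overlapped between the groups at 1317 and 1729 in MEK5DD and 1477 and 1606 in WT. Without WT replicate 1 the log2 fold change was -0.33 for NSD2 and -0.30 for NSD1, and neither was called. Without WT replicate 2 it was -0.38 for NSD2, which was called, and -0.30 for NSD1, which was not. With 1 WT library left, here and below, the fit takes its spread from the MEK5DD pair alone. A call lost there can come without a smaller change.

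All 4 H3K9 methyltransferase genes had negative log2 fold changes (median -0.18), and 1 was called. Negative values were found in 54 of all 71 members and in 7923 of 15721 genes tested. Limma called 6.47% of all genes lower, and 4 genes are too few to compare with these shares. EHMT2, which encodes G9a, had 1811 and 1710.3 normalised counts in MEK5DD, against 2065 and 2206 in WT (log2 fold change -0.28, SE 0.07, limma adjusted p = 0.0199). The highest MEK5DD value was below the lowest WT value. EHMT1, its partner in a heterodimer, had 2239 and 2178 in MEK5DD, against 2522 and 2449.7 in WT, with a log2 fold change of -0.17 that was not called (limma adjusted p = 0.102). SUV39H1, an enzyme of pericentromeric H3K9 trimethylation, overlapped between the groups at 238 and 215 in MEK5DD and 216 and 243 in WT. SUV39H2, its paralog, had 408 and 399.7 in MEK5DD, against 452 and 473 in WT (limma adjusted p = 0.196). EHMT2 did not pass when either WT library was left out (adjusted p = 0.106 for replicate 1 and 0.352 for replicate 2).

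The 3 H4K20 methyltransferase genes included 2 of the 3 rises. Over all genes tested 7.69% were called higher, and 3 genes are too few to compare with that rate. KMT5A, the gene of the monomethyltransferase SET8, had 553 and 546 normalised counts in MEK5DD, against 439 and 437 in WT. The pairs were tight and well apart (1.25-fold, log2 fold change 0.33, SE 0.09, limma adjusted p = 0.0277). KMT5C, which encodes an enzyme of H4K20 trimethylation, had 406.2 and 406 in MEK5DD, against 322 and 330.2 in WT (1.24-fold, log2 fold change 0.31, SE 0.10, limma adjusted p = 0.0492). Its paralog KMT5B had 944 and 1067 in MEK5DD and 1031 and 1076 in WT, which overlap. KMT5A did not pass when WT replicate 1 (adjusted p = 0.209) or WT replicate 2 (adjusted p = 0.222) was left out, or in DESeq2 (adjusted p = 0.113). KMT5C did not pass in the same 3 fits (adjusted p = 0.325, 0.248 and 0.206) or with scaling by upper quartile (adjusted p = 0.0567) or by quantiles (adjusted p = 0.0705).

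Of the 7 H3K4 methyltransferase genes limma called 0, with 1 at an unadjusted p under 0.05, and edgeR also called 0. The limma rate over all genes tested was 14.2%, and 7 genes are too few to compare with it. KMT2A to KMT2D and SETD1A and SETD1B encode the catalytic subunits of COMPASS complexes, and SETD7 encodes a monomethyltransferase. The lowest log2 fold change was that of KMT2D (-0.24, limma adjusted p = 0.118), which had 2126 and 2684 normalised counts in MEK5DD, against 2773 and 2857 in WT. The WT pair lay above both MEK5DD libraries, of which replicate 1 was much the lower, and the log2 fold change was -0.07 without MEK5DD replicate 1 and -0.40 without MEK5DD replicate 2. KMT2A showed the same arrangement with 1462 and 1817 in MEK5DD, against 1839 and 1885 in WT. KMT2B had 1080 and 1119 in MEK5DD and 1053 and 1086 in WT, and SETD1A had 701 and 729.6 in MEK5DD and 757 and 836 in WT. KMT2C turned direction with the library left out: its log2 fold change was 0.17 without MEK5DD replicate 1 (adjusted p = 0.0442) and -0.21 without MEK5DD replicate 2 (adjusted p = 0.00977).

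SETD4, a SET-domain protein gene, gave the largest rise among the members. It had 739 and 699 normalised counts in MEK5DD, against 515 and 519 in WT. The lowest MEK5DD value stood far above both WT values (1.39-fold, log2 fold change 0.47, SE 0.08, limma adjusted p = 0.00281). It was the 1 member called in each of the 4 fits that left out a library (adjusted p at most 0.0232). KMT2E, which encodes a SET-domain protein that binds H3K4 trimethylation, had 766 and 1025 in MEK5DD, against 1149 and 1160.3 in WT (log2 fold change -0.38, SE 0.11, limma adjusted p = 0.0416). The size of that fall depended on 1 library: it was -0.17 without MEK5DD replicate 1 (adjusted p = 0.0540) and -0.59 without MEK5DD replicate 2. Dropping either WT library also ended its call (adjusted p = 0.0600 for replicate 1 and 0.0781 for replicate 2), and DESeq2 gave an adjusted p of 0.0547. The other 8 genes of this group were not called, among them SETD5 at 4167 and 4644 in MEK5DD and 4673 and 4858 in WT, SMYD5 at 992 and 909 in MEK5DD and 899 and 838 in WT, and SETD3, an actin histidine methyltransferase gene, at 1509 and 1602 in MEK5DD and 1492 and 1323 in WT.

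**Figure D4:**
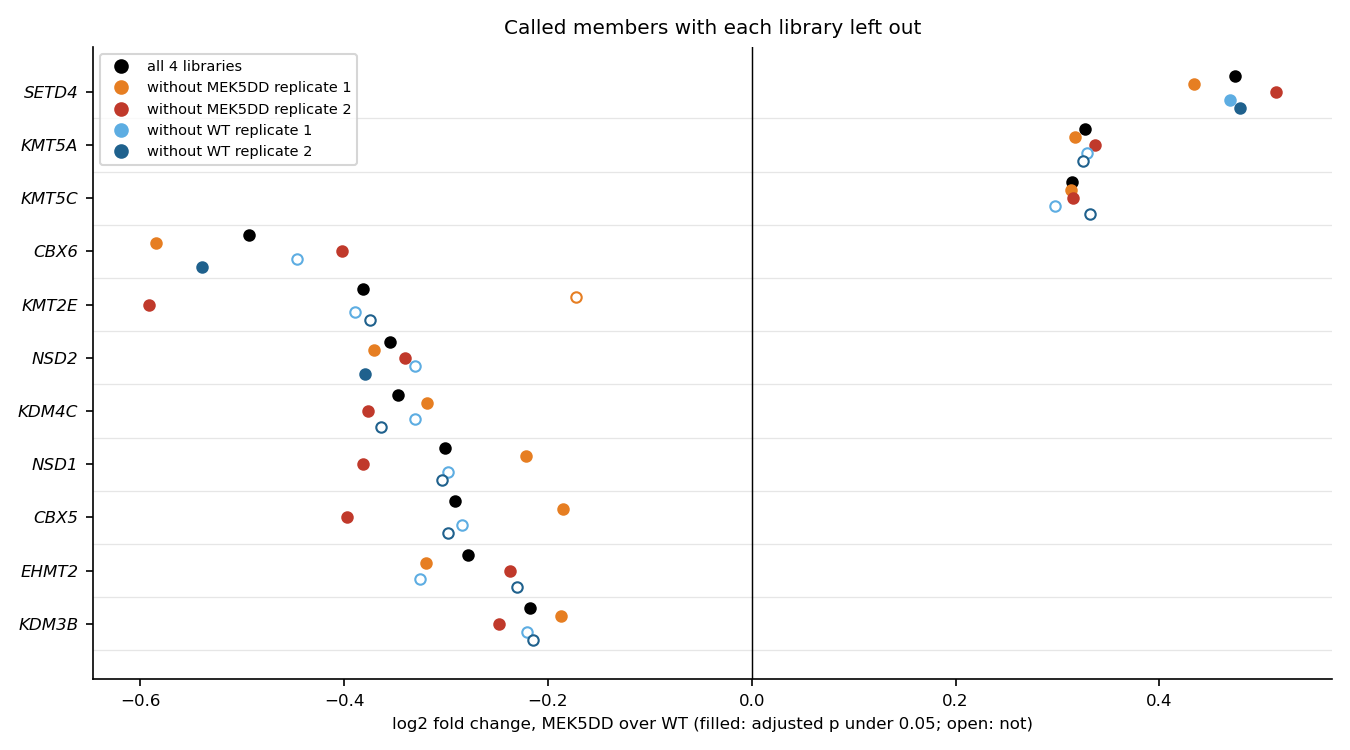
Log2 fold change (MEK5DD over WT) of the 11 called members with all 4 libraries and with each library left out; filled points have an adjusted p under 0.05. SETD4 is filled in every fit, and CBX6 and NSD2 are open only without WT replicate 1.

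The promoters of SETD4, NSD2 and CBX6 are shown because these members kept their calls in at least 3 of the 4 fits that left out a library. Each is the RefSeq window (GRCh38.p14) from 250 bases before to 50 bases after the start site, on the gene's strand. SETD4 lies at chr21:36060477-36060776 (minus strand), NSD2 at chr4:1871143-1871442 (plus strand) and CBX6 at chr22:38872167-38872466 (minus strand). The SETD4 window lies inside the GENCODE v29 gene, which on its strand begins at 36079389. Which start site these cells use was not tested. Capitals mark matches, on either strand, to the motifs named below.
SETD4: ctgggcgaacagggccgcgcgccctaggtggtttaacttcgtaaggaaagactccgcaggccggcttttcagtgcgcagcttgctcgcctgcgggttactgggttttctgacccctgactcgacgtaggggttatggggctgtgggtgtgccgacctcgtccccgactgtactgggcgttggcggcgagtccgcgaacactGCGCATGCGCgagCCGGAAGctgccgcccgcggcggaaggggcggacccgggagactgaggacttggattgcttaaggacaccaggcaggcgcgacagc
NSD2: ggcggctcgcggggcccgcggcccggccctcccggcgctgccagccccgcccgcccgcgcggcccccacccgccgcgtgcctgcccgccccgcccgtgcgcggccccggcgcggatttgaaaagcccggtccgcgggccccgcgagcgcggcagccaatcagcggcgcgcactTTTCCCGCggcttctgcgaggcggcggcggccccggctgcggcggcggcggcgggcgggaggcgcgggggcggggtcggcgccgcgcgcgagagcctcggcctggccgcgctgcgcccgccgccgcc
CBX6: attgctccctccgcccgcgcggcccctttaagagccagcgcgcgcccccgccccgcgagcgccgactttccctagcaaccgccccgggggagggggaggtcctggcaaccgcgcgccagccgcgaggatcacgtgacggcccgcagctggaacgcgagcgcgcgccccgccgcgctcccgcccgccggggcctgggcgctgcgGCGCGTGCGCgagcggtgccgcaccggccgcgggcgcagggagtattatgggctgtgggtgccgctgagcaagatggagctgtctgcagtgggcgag
In SETD4 an NRF1 motif began at position -49 and an ETS motif (CCGGAAG) at position -36, counted from the start site. CBX6 held an NRF1 motif at position -47 and NSD2 an E2F motif (TTTCCCGC) at position -77. The motifs do not overlap one another in these windows. Of 93 promoter windows of 65 matched members, 12.9% held the NRF1 motif, 10.8% the ETS motif and 4.30% this E2F motif, against 5.78%, 10.3% and 1.63% of all 35116 windows in the table. A second E2F form (TTTGGCGC) was in 2.15% and 0.652%, and the CRE (TGACGTCA) in 3.23% and 1.85%. The GC box (GGGCGG), which capitals do not mark, was in 77.4% and 45%. MEF2 factors form a family that ERK5 phosphorylates. An exact form of their motif, with no variants allowed, was in 0 of the 93 windows and in 0.128% of all windows. A form this rare cannot tell the members' windows from other windows. Variant forms were not searched, so whether the members' windows lack MEF2 sites was not tested. The members' windows were rich in CG pairs, with a median observed over expected ratio of 0.917, against 0.579 over all windows. These matches are descriptions of sequence and not measurements of binding.

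PRC2 genes were not called in either direction. Limma called 0 of 8, with 3 at an unadjusted p under 0.05, and edgeR and DESeq2 also called 0. The limma rate over all genes tested was 14.2%, and 8 genes are too few to compare with it. The median log2 fold change was -0.07. EZH2, the main catalytic subunit, had 983 and 981 normalised counts in MEK5DD, against 1035 and 1001 in WT (log2 fold change -0.05, SE 0.07, limma adjusted p = 0.705). The groups lay apart by less than the width of the WT pair. EZH1, the second catalytic subunit, had 338 and 398 in MEK5DD and 381 and 380.2 in WT. Per kilobase of exon EZH2 made up 81.8% and 79.2% of the summed EZH1 and EZH2 level in the MEK5DD libraries, against 80.7% and 80.3% in the WT libraries. SUZ12, which holds the complex together, had 969 and 1094 in MEK5DD and 1002 and 1078 in WT, and EED, which reads the mark, had 385 and 378 in MEK5DD and 378 and 434 in WT. Both overlapped between the groups. SUZ12 has a listed pseudogene, SUZ12P1, that could share reads.

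The PRC2 accessory genes JARID2, MTF2 and AEBP2 had lower values in both MEK5DD libraries than in both WT libraries, without a call. The same held for EZH2, so 4 of the 8 PRC2 genes lay below, against 28% of all genes tested. JARID2, a recruiting subunit with the highest level per kilobase among the Polycomb genes (1232 in MEK5DD and 1362 in WT), had 7352 and 7470.1 normalised counts in MEK5DD, against 8249 and 8137 in WT. Both MEK5DD values were below both WT values, without a call (log2 fold change -0.14, SE 0.06, limma adjusted p = 0.116). MTF2, a subunit that binds CG-rich DNA, had 1529 and 1806 in MEK5DD, against 1873 and 1959 in WT (log2 fold change -0.20, limma adjusted p = 0.129). That value was -0.08 without MEK5DD replicate 1 and -0.32 without MEK5DD replicate 2. AEBP2 had 831 and 846 in MEK5DD, against 953 and 939 in WT (log2 fold change -0.17, limma adjusted p = 0.158). PHF1, a paralog of MTF2, overlapped at 517 and 449.5 in MEK5DD and 465 and 474 in WT. JARID2 passed in 3 of 15 alternative fits, with quantile scaling (adjusted p = 0.0467) and when MEK5DD replicate 1 or MEK5DD replicate 2 was left out (adjusted p = 0.0106 and 0.00161). It did not pass with DESeq2 (adjusted p = 0.268) or when WT replicate 1 or WT replicate 2 was left out (adjusted p = 0.642 and 0.573).

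**Figure D5:**
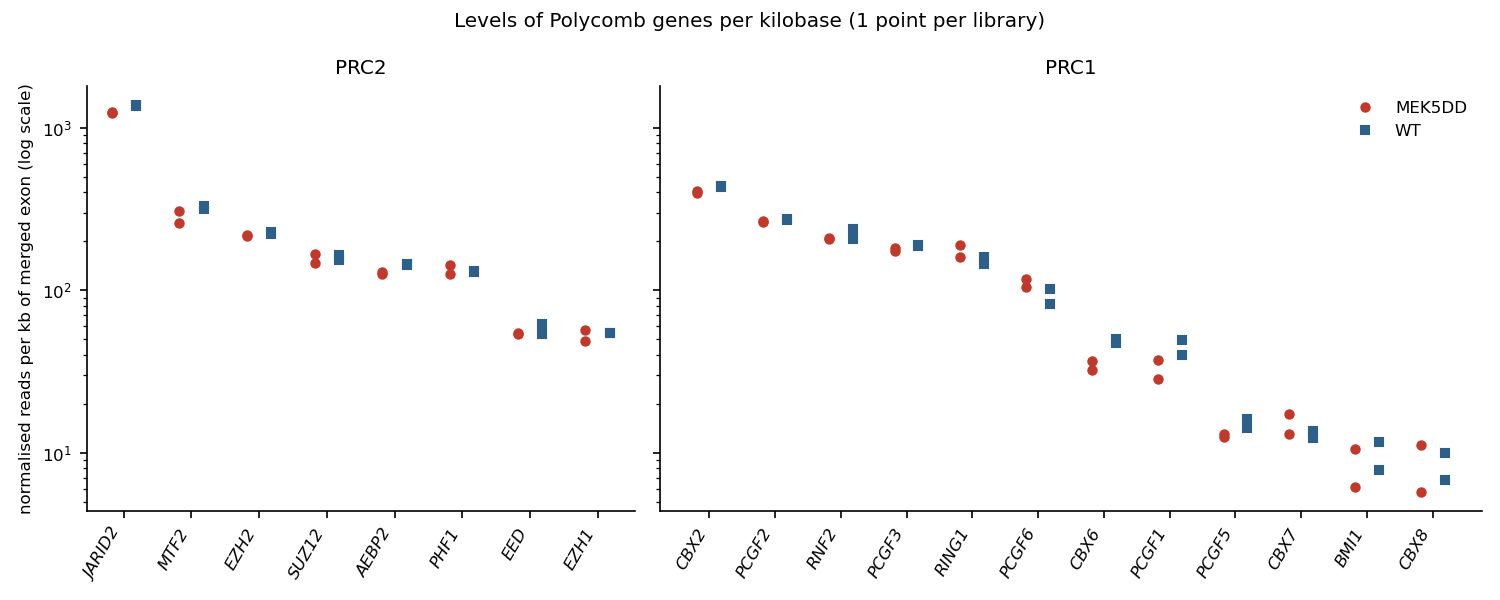
Normalised reads per kilobase of merged exon (log scale) of the 8 PRC2 and 12 of the 13 PRC1 genes, 1 point per library, MEK5DD left of WT for each gene. JARID2 lies highest, and among PRC1 genes CBX2 leads and BMI1 and CBX8 lie lowest.

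PRC1 genes held 1 call among 13 (7.69%, against 14.2% of all genes tested), with a median log2 fold change of -0.08. CBX6, a chromodomain subunit, had 295 and 260.1 normalised counts in MEK5DD, against 403 and 378 in WT. This was the largest fall among the members (1.41-fold lower, log2 fold change -0.49, SE 0.11, limma adjusted p = 0.00978), and the groups were well separated. Without WT replicate 1 its adjusted p was 0.0846. CBX2 had 2319.8 and 2246 in MEK5DD, against 2497 and 2462 in WT, without a call (limma adjusted p = 0.251). Per kilobase of exon CBX2 stood at 401 in MEK5DD and 436 in WT, and CBX6 at 34.6 in MEK5DD and 48.7 in WT. CBX7, the main chromodomain subunit of mouse embryonic stem cells, had 129 and 97.7 in MEK5DD and 92.5 and 101 in WT. CBX8 was low, with 46.3 and 23.9 in MEK5DD and 28.2 and 41.7 in WT, which overlap.

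The ubiquitin ligase subunits overlapped or lay close. RNF2 had 841 and 847 in MEK5DD and 842 and 969 in WT (limma adjusted p = 0.514), and RING1 had 343 and 292.0 in MEK5DD and 265 and 291.6 in WT (limma adjusted p = 0.332). RNF2 made up 52.2% and 56.4% of the summed per-kilobase level of this pair in MEK5DD, against 58.6% and 59.7% in WT. RNF2 has a listed pseudogene, RNF2P1. Among the PCGF genes, whose products define the PRC1 variants, PCGF2 led with 42.8% and 44.4% of the summed per-kilobase level in MEK5DD, against 44.2% and 43.5% in WT. PCGF3 followed with 29.3% and 29.4% in MEK5DD and 30.4% and 30.0% in WT. The order below these was PCGF6, PCGF1, PCGF5 and BMI1 in each library. PCGF6 had 351 and 314 normalised counts in MEK5DD, against 248 and 306 in WT (log2 fold change 0.27, limma adjusted p = 0.186). PCGF1 had 98.1 and 74.8 in MEK5DD, against 129 and 105 in WT (log2 fold change -0.44, limma adjusted p = 0.141). PCGF5 had 108 and 104 in MEK5DD, against 135 and 118 in WT. BMI1 was at 26.4 and 44.9 in MEK5DD and 33.5 and 49.99 in WT, but 23.3% of its exon bases lie in the annotated readthrough gene COMMD3-BMI1, so reads there may not have been assigned to it. PCGF2 shares 45.7% of its exon bases with genes on the opposite strand. The sources used here do not state the strand setting of the counting.

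HP1 genes encode the chromodomain proteins that bind methylated H3K9, and they did not move together. CBX5 (HP1-alpha) had 6857 and 7942 normalised counts in MEK5DD, against 9075 and 8984 in WT, with both MEK5DD values lower (log2 fold change -0.29, SE 0.07, limma adjusted p = 0.0172). Its log2 fold change was -0.19 without MEK5DD replicate 1 and -0.40 without MEK5DD replicate 2. Dropping either WT library ended its call (adjusted p = 0.152 for replicate 1 and 0.126 for replicate 2). CBX1 (HP1-beta) had 3630.1 and 3641 in MEK5DD and 3702 and 3654 in WT, a log2 fold change of -0.02. CBX3 (HP1-gamma) had 3213 and 3301 in MEK5DD, against 2837 and 2849.7 in WT (log2 fold change 0.20, SE 0.06), and just missed the threshold (limma adjusted p = 0.0535). CBX3 has 9 named pseudogenes and shares 7.93% of its exon bases with HNRNPA2B1 on the opposite strand.

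Of 18 demethylase genes with a level given, 2 fell and 0 rose (11.1% called, against 14.2% of all genes tested). Their median log2 fold change was -0.13. Both falls were genes of H3K9 demethylases. KDM4C, a demethylase of H3K9 and H3K36 trimethylation, had 714 and 744 normalised counts in MEK5DD, against 938 and 917 in WT (log2 fold change -0.35, SE 0.08, limma adjusted p = 0.0113). The pairs were tight and did not overlap. KDM3B, a demethylase of lower H3K9 methylation, had 3140.3 and 3276 in MEK5DD, against 3721 and 3738 in WT (log2 fold change -0.22, SE 0.06, limma adjusted p = 0.0341). With WT replicate 1 left out the adjusted p was 0.157 for KDM4C and 0.351 for KDM3B. With WT replicate 2 left out it was 0.105 for KDM4C and 0.376 for KDM3B, and DESeq2 gave 0.0766 for KDM3B. PHF8 had 744 and 830.2 in MEK5DD, against 943 and 935 in WT, just above the threshold (limma adjusted p = 0.0582). KDM7A, its paralog, had a positive log2 fold change, at 877 and 1017 in MEK5DD, against 779 and 855 in WT (log2 fold change 0.21, limma adjusted p = 0.158). KDM4A, which shares 48.5% of its exon bases with other genes, was not called, at 1782.8 and 1732 in MEK5DD and 1929.8 and 1785 in WT (limma adjusted p = 0.514). PHF2 had 499.8 and 541 in MEK5DD, against 563 and 622 in WT (limma adjusted p = 0.219). KDM4D was low, at 15 to 16.4 in MEK5DD and 16.7 to 21.1 in WT.

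The H3K4, H3K27 and H3K36 demethylase genes gave 0 calls with limma and edgeR, with 3, 0 and 0 at an unadjusted p under 0.05. These groups held 5, 2 and 2 genes with a level given, too few to compare with the 14.2% that limma called over all genes tested. KDM1A (LSD1), the member with the highest level per kilobase among demethylases (1260.4 in MEK5DD and 1308 in WT), had 7048 and 6666 normalised counts in MEK5DD and 7168 and 7058 in WT (log2 fold change -0.05, limma adjusted p = 0.612). KDM5B had 5295 and 5436 in MEK5DD, against 6164 and 6062 in WT (log2 fold change -0.19, SE 0.06), at an adjusted p of 0.0505 with limma. It passed with quantile scaling (adjusted p = 0.00946) and upper-quartile scaling (adjusted p = 0.0371), and not with DESeq2 (adjusted p = 0.115) or when WT replicate 1 or WT replicate 2 was left out (adjusted p = 0.492 and 0.412). With the length trend removed its log2 fold change was -0.08 (adjusted p = 0.398). KDM5C had 2006 and 1956 in MEK5DD, against 2184 and 2185 in WT (limma adjusted p = 0.180). The H3K27 demethylase genes KDM6A and KDM6B, which counter PRC2, had 1399 and 1569.8 in MEK5DD and 1544 and 1494 in WT, and 313 and 322 in MEK5DD, against 364 and 363.5 in WT. KDM2B, which also recruits a PRC1 variant to CG-rich promoters, had 2371 and 2295 in MEK5DD, against 2597 and 2464 in WT (limma adjusted p = 0.274). KDM2A, its paralog, had 1501 and 1584 in MEK5DD, against 1587 and 1650.8 in WT (limma adjusted p = 0.566).

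Companion genes, subunits and further enzymes outside the symbol rule, gave a share of limma calls near that of all genes. Of 54 tested companions 3 rose and 6 fell with limma (16.7%, against 14.2% of all genes). DESeq2 called 1 higher and 1 lower, a smaller share than the 8.64% of all genes that it called. The largest called change was in SCML2, a PRC1-associated protein gene. It had 149.9 and 149.5 normalised counts in MEK5DD, against 270.4 and 272 in WT (log2 fold change -0.85, SE 0.12, limma adjusted p = 0.000548), and was called in each of its 15 alternative fits. The other 13 PRC1 partners tested were not called. Among 12 COMPASS subunits, ASH2L rose (1822 and 1836 in MEK5DD, against 1460.3 and 1443 in WT; log2 fold change 0.33, limma adjusted p = 0.00590) and NCOA6, HCFC1 and PSIP1 fell, led by NCOA6 (208 and 207 in MEK5DD, against 283 and 291 in WT; log2 fold change -0.46, limma adjusted p = 0.0154). HCFC1 had 2646 and 2613 in MEK5DD, against 2956 and 3284 in WT (log2 fold change -0.24, limma adjusted p = 0.0338). Its adjusted p was 0.0618 with DESeq2, 0.0998 when WT replicate 1 was left out and 0.543 when WT replicate 2 was. PSIP1 had 0.0912, 0.333 and 0.514 in the same 3 fits. ASH2L and NCOA6 had adjusted p values of 0.0870 and 0.0800 when WT replicate 1 was left out, and of 0.119 and 0.128 when WT replicate 2 was. EPOP, a PRC2 partner gene, had 334 and 354 in MEK5DD, against 429.8 and 486 in WT (log2 fold change -0.41, limma adjusted p = 0.0189), with an adjusted p of 0.276 when WT replicate 2 was left out. Of the H2A deubiquitinase and LSD1 corepressor genes FOXK1 and RCOR1 rose and ASXL1 fell. When WT replicate 1 was left out their adjusted p values were 0.401 (FOXK1), 0.127 (RCOR1) and 0.325 (ASXL1), and when WT replicate 2 was, 0.134 (FOXK1), 0.432 (RCOR1) and 0.294 (ASXL1). Of 8 other methylation enzymes, DOT1L and ASH1L included, limma called 0, with 2 at an unadjusted p under 0.05, and edgeR called 0.

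HOX cluster genes are textbook Polycomb targets. HOXB13 was the 1 listed, at 23.6 and 31.9 in MEK5DD, against 68.7 and 79.2 in WT (log2 fold change -1.39, SE 0.24, limma adjusted p = 0.00231). All other HOX cluster genes were not analysed here, so the cluster as a whole is not described.

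Several members follow the cell cycle in other systems, among them KMT5A and EZH2. Of 18 cell cycle genes limma and edgeR each called 0 higher and 5 lower, and DESeq2 called 0 higher and 2 lower. Over all genes tested limma called 7.69% higher and 6.47% lower. Log2 fold changes were positive in 6 of the 18 and negative in 12. Their summed level was 59514 to 60340.3 in MEK5DD, against 65811 to 66215 in WT. MKI67 had 4956 and 6443 in MEK5DD, against 7237 and 7387 in WT (limma adjusted p = 0.0232), with its lowest value in MEK5DD replicate 1. MCM2 had 2507 and 2312 in MEK5DD, against 3097 and 3026 in WT. The part of the cell cycle in the members' values was not tested.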

How the data were processed

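The deposited table holds normalised gene counts, a signal that the authors scaled by 1 factor per library, inferred from values that are whole multiples of the smallest value in each library (largest departure 0.000121). Per the submitters' processing notes, hg38, STAR, DESeq2 1.26.0, featureCounts 1.5.3 and Trimmomatic 0.36 were used, in an order not given. Every listed gene has a read in every library, and 17472 genes are listed.

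Limma 3.58.1 (R 4.3.3), with a mean-variance trend, tested log2(value + 1) of 15721 genes that reached 10 in 2 or more libraries. P-values are two-sided, with Benjamini-Hochberg adjustment over all genes tested and a threshold of 0.05. Fold changes on this scale understate changes of low genes. The labels name no batch and do not say whether replicates are separate cultures, so p-values measure the spread between libraries, which may be technical. EdgeR 4.0.16, which called 2306 genes, and DESeq2 1.42.0 ran on recovered reads. 

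Coordinates and exon lengths came from GENCODE v29 (GRCh38). Another member enters the counts and is not reported here. Members, gene lists and tests were chosen with earlier results of these data known. Named genes were the called members, PRC1 and PRC2 members, up to 3 members per role with the highest level per kilobase, and up to 2 called companions per list and direction. KMT2A, KMT2C, SMYD2, KDM7A, KDM4D, PSIP1, DOT1L, ASH1L and the marker genes stand outside this rule and were picked with values in view.

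In simulated MEK5DD and WT libraries (15525 genes) limma recovered 79.1% of 1.5-fold, 95.5% of 2-fold and 100% of 4-fold changes, and 8 of 191 calls were unchanged genes. Folds under 1.5, as in all called members here, were not simulated. Genes were drawn independently, each with the same dispersion in both groups. The wider MEK5DD pair and the length-linked difference between its replicates were not simulated, so these rates may not hold for the real libraries.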

Additional observations from a re-analysis of the deposited data

How the results depend on the processing

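The count over all genes was 2226 in the main setting, 439 without the mean-variance trend, 1358 with DESeq2 and 3349 with the replicate block, and 1160 to 4629 with each library left out. Members called higher numbered 3 in the main setting, 0 without the trend, 1 with DESeq2, 5 with the length trend removed, and 1 to 8 with each library left out. Members called lower numbered 8, 0 without the trend, 15 with the replicate block, and 0 to 23 with each library left out; leaving out a WT library gave 0 (replicate 1) and 2 (replicate 2), and leaving out a MEK5DD library 16 (replicate 1) and 23 (replicate 2). Where 1 library is left in a group, that group gives no spread, and the fit takes it from the other pair. With a WT library left out this is the MEK5DD pair (chi-square per degree of freedom 6.09). With a MEK5DD library left out it is the tighter WT pair (1.87). How far this moves the counts was not tested.

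Without the trend the adjusted p of the 11 called members ran from 0.0745 to 0.278. KMT5C was also lost without a filter (adjusted p = 0.0525). The sign changed in 27 gene values of 16 genes, none of them called in the main setting and 2 called after the change, KMT2C and NSD3 without MEK5DD replicate 1. With each library left out the log2 fold changes of these genes ran over BMI1 -0.62 to 0.13, CBX8 -0.50 to 0.42, EED -0.19 to 0.014, EZH1 -0.17 to 0.063, KDM1B -0.034 to 0.21, KDM4B -0.011 to 0.073, KDM6A -0.12 to 0.048, KMT2C -0.21 to 0.17, KMT5B -0.16 to 0.019, NSD3 -0.23 to 0.17, PHF1 -0.063 to 0.14, RNF2 -0.20 to 0.0039, SETD9 -0.20 to 0.14, SMYD3 -0.31 to 0.021, SUV39H1 -0.10 to 0.069 and SUZ12 -0.10 to 0.075. CBX8 was 0.039 with edgeR and 0.018 with DESeq2, SETD9 0.0039 with quantile scaling, and KMT2C and NSD3 0.071 and 0.045 with the length trend removed. Other pseudocounts, filters and scalings kept the member counts within 1.5 times the main ones, except that KMT5C dropped out as given. Of 1196 gene values under an alternative, 1052 kept direction and side of the threshold, 70 lost a call and 47 gained one in the same direction. The replicate numbers did not pair the libraries (correlation of deviations 0.0469), and with the block all 11 members kept their calls. Leaving out a library left 867 of the 2226 calls in all 4 fits, and 1 of the members' calls.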
